A study of Nothobranchius furzeri with 3 samples.

Results

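The genes described here are the ATF4 amino acid response genes and the cytosolic aminoacyl-tRNA synthetases of *N. furzeri*, the turquoise killifish, in the basal layer of the fin epidermis. They were taken from a list of 43 symbols, matched to the symbols of the deposited count table with upper and lower case ignored and with a final 1, a or b allowed. Of the 43 symbols, 38 were found, in 42 of the 22954 genes of the table. The symbols cars, gars, lars, yars and sesn2 were not found by this rule and were not analysed here. The 42 genes are 16 synthetases, 3 scaffold genes of the synthetase complex, 7 transcription factors, 4 stress effectors, 3 amino acid transport genes and 9 genes of amino acid and one-carbon biosynthesis. CHAC1 and aldh18a1 each name 2 genes of the table, which were kept apart by identifier.

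ATF4 is the transcription factor of the integrated stress response. When unfolded proteins gather in the ER, or when amino acids run short, kinases such as PERK and GCN2 phosphorylate the initiation factor eIF2, which lowers translation in general while ATF4 mRNA is translated more. In mammals ATF4 then switches on genes that take up and make amino acids and that charge tRNAs with them, together with the pro-apoptotic factor CHOP and several feedback genes. The synthetases, which attach each amino acid to its tRNA, are used by every cell. The roles given below are those known in mammals.

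Aged (Tm) fish were aged killifish kept in water with tunicamycin, an inhibitor of N-glycosylation that loads the ER with unfolded proteins, at 1 µg/mL for a night (a day in the study's methods). Aged and young fish were controls kept in DMSO, and all fish were of the GRZ strain according to the study's methods. Expression was read by photo-isolation chemistry (PIC), in which UV light on p63-positive cells of a section frees caged reverse transcription primers, so that only RNA of the lit cells is amplified and counted by unique molecular identifiers (UMIs). There were 3 aged (Tm), 4 aged and 4 young libraries, and the labels give neither ages, sexes nor whether replicates came from separate fish, so the p-values measure the spread between these libraries only. The labels give 1 library name per condition, so a difference in preparation cannot be told apart from the condition.

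Total counts were 319223 to 705538 in aged (Tm), 37655 to 265509 in aged and 35366 to 298033 in young libraries. The exact permutation test of the totals, aged (Tm) against aged, gave p = 0.0571 (two-sided), the smallest it can give for 3 libraries against 4. A single count was worth 1.42 CPM (counts scaled to a library total of 1000000) in the deepest library, aged (Tm) replicate 3, and 28.3 CPM in the shallowest, young replicate 3, where a count of 0 allows up to 84.8 CPM (3 counts, counting error only). All 6 basal keratinocyte markers were detected in each group, with a summed level of 13470 to 14410 CPM in aged (Tm), 25400 to 32820 CPM in aged and 22450 to 59100 CPM in young libraries. The single markers went both ways. Aged (Tm) against aged, 2 of the 6 were called higher and 1 lower (edgeR with its filter on low counts, adjusted p below 0.1). Of all genes tested, 18.5% were higher and 20.2% lower. The p63 gene tp63 averaged 1490 CPM in aged (Tm) and 911 CPM in aged libraries and was not called (edgeR adjusted p = 0.272). A list of 92 neuronal and retinal genes that are scarce in epidermis was lower in aged (Tm) than in all aged libraries but overlapped with young libraries, at 367 to 1042 CPM in aged (Tm), 1371 to 5949 CPM in aged and 767 to 3563 CPM in young libraries, with 2, 4 and 4 of the 92 at 0. The summed level of 9 suprabasal markers was 1735 to 2306 CPM in aged (Tm), 372 to 1710 CPM in aged and 368 to 2402 CPM in young libraries, with 1 of the 9 at 0 in aged and in young. For 18 muscle genes it was 4442 to 7036 CPM in aged (Tm), 5563 to 23320 CPM in aged and 22580 to 88670 CPM in young libraries, with 1 at 0 in young. For 12 fibroblast genes, all detected in each group, it was 441 to 1800 CPM in aged (Tm), 974 to 3171 CPM in aged and 7493 to 14040 CPM in young libraries, so that young libraries stood apart from both others. The part of these lists in the results below was not tested. A covariate for the scarce genes is given below, but it cannot separate their level from tunicamycin, as that level did not overlap between aged (Tm) and aged libraries. In these bulk libraries, fewer cells of a type and less RNA per cell cannot be told apart.

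The first comparison asked how ATF4 genes and synthetases differed in aged fish after tunicamycin. Most members were higher and none was lower. Without a filter on low counts, 25 of the 42 genes passed the threshold of 0.1 on the adjusted p of edgeR and all 25 were higher in aged (Tm) libraries than in aged libraries, beside 6.12% of all 22954 genes. That share takes in genes with few counts, and was 18.5% of the 3963 genes that passed the filter. Members and the other gene lists were chosen with earlier results of these data known, so their shares here and below are not independent support. None of the 42 was lower, against 0.754% of all genes. The median log2 fold change of the 42 genes was 2.54, beside -0.14 over all genes. The highest fold changes were those of NARS (asparagine charging), phgdh (serine synthesis), CHAC1 (glutathione breakdown), ASNS (asparagine synthesis) and TRIB3 (feedback on ATF4). All aged libraries together held 8 counts of NARS, 6 of ASNS, 2 of phgdh and 2 of TRIB3, so the size and order of these folds are poorly fixed. CHAC1 (ENSNFUG00015002384) had 125. DESeq2 gave an adjusted p to 30 of the 42 and called 25 of them higher, beside 16.5% of all genes to which it gave one. Without the 3 control libraries under 60000 counts, 18 of the 42 were called by edgeR, beside 2.54% of all genes higher. With libraries scaled by total counts alone 18 were called too, beside 1.90% of all genes higher. Lost calls are named here only for members that did not pass edgeR's filter on low counts. Of these, atf4a, DDIT3, psph, PYCR1, RARS and WARS1 were called under neither setting. Nor were they called after every library was thinned to the lowest total. Thinning also removed the calls of TRIB3, phgdh, PSAT1 and HARS (adjusted p from 0.104 to 0.42), and 9 of 39 members were then called. Under each of these settings, members that passed the filter lost calls too. The CPM of the aged (Tm) libraries lay wholly above that of the aged libraries for 22 of the 42 genes, beside 4.66% of all genes, and in no case wholly below it, beside 10.8%. A count of 0 allows up to 79.7 CPM in aged replicate 1 and 58.5 CPM in aged replicate 3. For low genes at 0 there, the separation can rest on depth.

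With edgeR's filter on low counts, 16 of the 42 members could be tested, and 14 of the 16 were called higher, beside 18.5% of the 3963 genes tested, and none was lower, beside 20.2%. Several of these passed the filter only through the aged (Tm) libraries. The filter was also run on aged and young libraries alone, where its cut-off in CPM is higher because their median total is lower. On these libraries 6 members passed, ATF4B2, the CHAC1 gene ENSNFUG00015002384, SLC3A2, the ALDH18A1 gene ENSNFUG00015014012, farsa and tars1. Of these 6, 5 were higher in aged (Tm) libraries, beside 18.8% of the 1520 genes that passed in the same way. Members that failed this stricter cut-off did not all need the aged (Tm) libraries to pass the main filter. With the level of the scarce neuronal and retinal genes as a covariate, 1 of 16 members was called, SLC3A2 (adjusted p = 0.0616, edgeR), beside 0.530% of all genes higher, and without a filter 1 of 42, beside 0.135%. Calls over all genes also fell in number with this covariate, to 21 higher and 30 lower with the filter. The level of the scarce genes did not overlap between aged (Tm) and aged libraries. The fit with the covariate therefore cannot separate this level from tunicamycin, and no conclusion is drawn from the lost calls. After each library was thinned to 35366 counts, 3 of the 4 members still tested were higher, beside 9.38% of all genes, and without a filter 9 of 39, beside 0.420%.

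**Figure D1:**
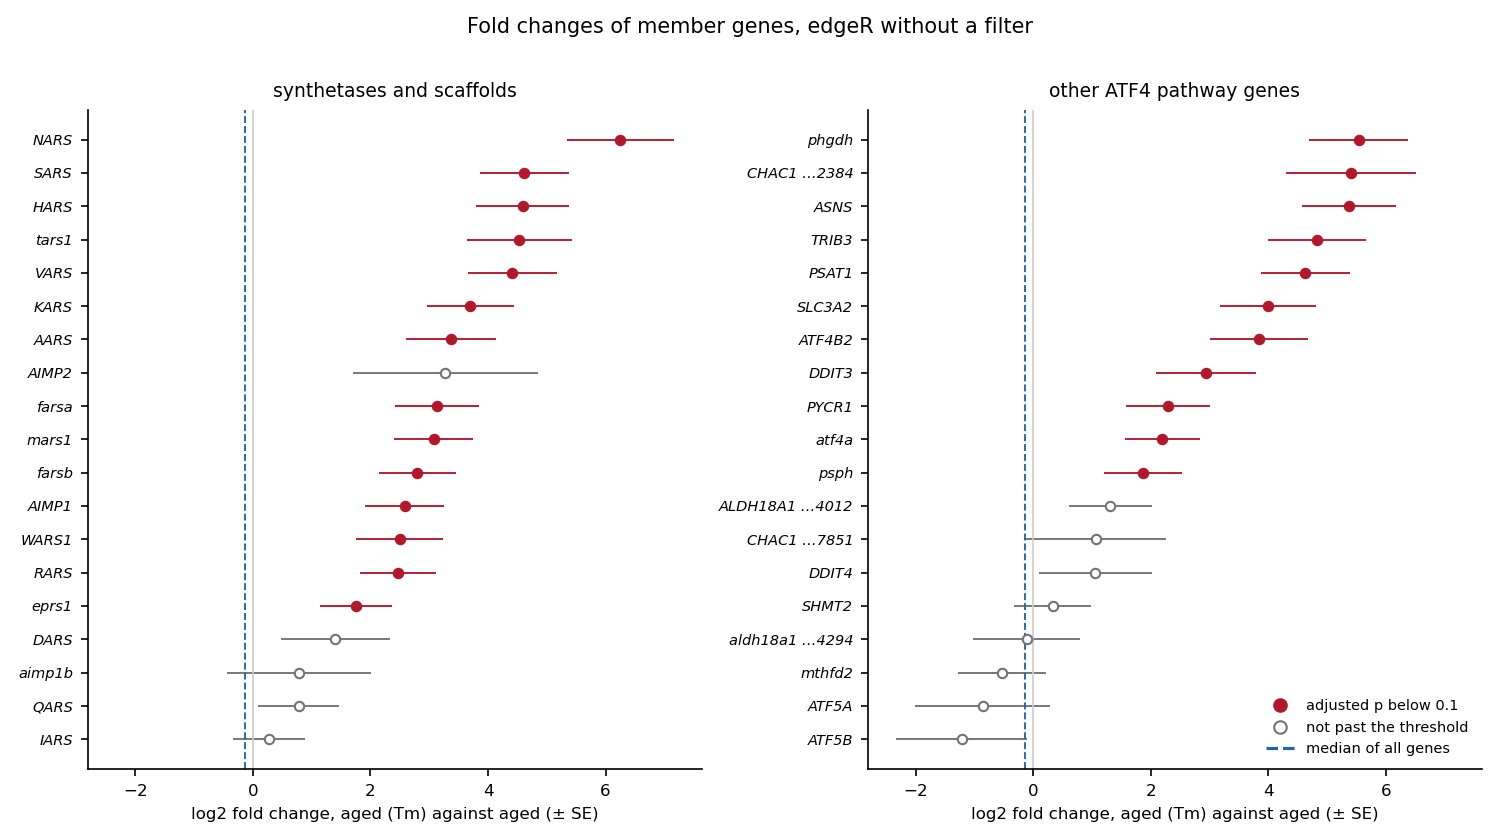
Log2 fold changes of member genes, aged (Tm) against aged, with edgeR without a filter. Each point is 1 gene with its SE, filled where the adjusted p was below 0.1, and the dashed line is the median of all 22954 genes at -0.14. The synthetases run up to 6.25 for NARS and the other genes up to 5.53 for phgdh. The 4 genes with at most 3 counts in either group (CEBPB, cebpg, SLC7A11 and slc7a5) are left out. AIMP2, with 5 counts in aged (Tm) and 0 in aged libraries, is drawn at a fitted value that its counts do not fix.

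Among the transcription factors, ATF4 itself is encoded by a pair of genes. ATF4B2 (ENSNFUG00015002924) stood at 724, 968 and 391 CPM in aged (Tm) libraries, against 53.1, 102, 77.9 and 155 CPM in aged libraries. Every aged (Tm) library was above every aged library, and the log2 fold change was 3.17 ± 0.62 (SE, edgeR adjusted p = 0.00225). Its paralog atf4a (ENSNFUG00015005300) had 51.9, 40.7 and 101 CPM in aged (Tm) libraries, against 53.1, 37.7, 39.0 and 0 CPM in aged libraries, so that the groups overlapped. It was tested only without a filter, where the log2 fold change was 2.20 ± 0.63 (SE, edgeR adjusted p = 0.0174), and the adjusted p was 0.197 without aged replicate 4. The atf4a call was also lost with total counts alone (log2 fold change 1.25, adjusted p = 0.29), after thinning (0.40, adjusted p = 0.885) and without the shallow libraries (2.05, adjusted p = 0.108). The atf4a values in aged replicates 1 and 3 rest on 2 counts each.

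DDIT3, which encodes CHOP, the factor that links lasting ER stress to cell death, had 23.1, 18.8 and 32.6 CPM in aged (Tm) libraries, against 0, 7.53, 0 and 5.55 CPM in aged libraries. The groups did not overlap in CPM, but a count of 0 allows up to 79.7 CPM in aged replicate 1 and 58.5 CPM in aged replicate 3. Both bounds lie above all aged (Tm) values, so depth does not allow the separation to be read as one in level. The log2 fold change was 2.94 ± 0.85 (SE, edgeR without a filter, adjusted p = 0.0175). The DDIT3 call was lost with total counts alone (log2 fold change 2.14, adjusted p = 0.189), after thinning (1.59, adjusted p = 0.562) and without the shallow libraries (2.36, adjusted p = 0.213). The other transcription factors were hardly counted. ATF5A and ATF5B, relatives of ATF4, had 3 counts each in all aged (Tm) libraries together, against 4 and 5 in the aged libraries. CEBPB had 3 counts against 0, and cebpg, a partner with which ATF4 binds DNA, had 0 counts in both groups. No difference was detectable for these 4 at this depth.

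Among the stress effectors, CHAC1 (ENSNFUG00015002384), which breaks down glutathione and is a target of ATF4, had the highest log2 fold change without a filter. It was 5.40, beside 4.83 for TRIB3. CHAC1 stood at 4793, 5943 and 1341 CPM in aged (Tm) libraries, against 106, 207, 175 and 316 CPM in aged libraries. The lowest aged (Tm) library, replicate 3, was still above the highest aged library. With the filter the log2 fold change was 4.77 ± 0.85 (SE, edgeR adjusted p = 0.00143). The other gene with the symbol CHAC1 (ENSNFUG00015017851) had 1, 3 and 2 counts in aged (Tm) libraries, against 0, 0, 0 and 2 counts in aged libraries, and did not pass the threshold.

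TRIB3, a pseudokinase that feeds back on ATF4, had 45, 7 and 24 counts in aged (Tm) libraries (130, 21.9 and 34.0 CPM), against 0, 2, 0 and 0 counts in aged libraries. Most of its counts in aged (Tm) fish came from replicate 1. Its log2 fold change was 4.83 ± 0.84 (SE, edgeR without a filter, adjusted p = 4.59e-06), and 3.51 without aged (Tm) replicate 1 (adjusted p = 0.0183). Without aged replicate 2 all aged libraries were at 0, so no fold is given. DDIT4, an inhibitor of mTORC1 signalling, had 12 counts in aged (Tm) libraries and 4 in aged libraries and did not pass the threshold (edgeR without a filter, adjusted p = 0.596).

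Of the transport genes, SLC3A2, the heavy chain shared by several amino acid exchangers, had 669, 605 and 445 CPM in aged (Tm) libraries, against 106, 60.3, 77.9 and 94.3 CPM in aged libraries. The libraries within each group lay close together and the groups were far apart. The log2 fold change was 3.24 ± 0.54 (SE, edgeR adjusted p = 0.000863). Its light chains were near the limit of detection. SLC7A11, which imports cystine, had 2 counts in aged (Tm) and 1 in aged libraries, and slc7a5, which imports large neutral amino acids, had 2 and 3 counts.

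In serine synthesis, all 3 enzymes of the pathway from the glycolytic intermediate 3-phosphoglycerate were higher in aged (Tm) libraries than in aged libraries, each tested without a filter, although the psph call depended on the settings. Phgdh, the first enzyme, had 41, 49 and 21 counts in aged (Tm) libraries (118, 154 and 29.8 CPM), against 0, 1, 0 and 1 counts in aged libraries. PSAT1, the next, had 130, 254 and 53.9 CPM in aged (Tm) libraries, against 0, 11.3, 39.0 and 5.55 CPM in aged libraries. In both genes aged (Tm) replicate 3 was the lowest of the treated libraries and yet above all aged libraries in CPM. A count of 0 in aged replicate 1 allows up to 79.7 CPM, however, which is above aged (Tm) replicate 3 in both genes. The log2 fold changes were 5.53 ± 0.84 for phgdh (SE, edgeR adjusted p = 9.43e-08) and 4.63 ± 0.76 for PSAT1 (SE, edgeR adjusted p = 7.21e-07). Psph, the last step, differed less, with 37.5, 34.5 and 43.9 CPM in aged (Tm) libraries, against 0, 26.4, 19.5 and 16.6 CPM in aged libraries. Its log2 fold change was 1.87 ± 0.66 (SE, edgeR adjusted p = 0.0775), and the adjusted p was 0.129 to 0.264 when aged replicate 1, 3 or 4 or aged (Tm) replicate 1 or 2 was left out. The psph call was also lost with RLE size factors (adjusted p = 0.13), total counts alone (log2 fold change 1.01, adjusted p = 0.431), thinning (adjusted p = 0.524) and without the shallow libraries (adjusted p = 0.505).

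ASNS, which makes asparagine, is among the best known ATF4 targets. It had 61, 143 and 36 counts in aged (Tm) libraries (176, 448 and 51.0 CPM), against 0, 4, 0 and 2 counts in aged libraries. The aged (Tm) libraries were spread widely, with replicate 2 the highest, but none overlapped with aged libraries in CPM. A count of 0 allows up to 79.7 CPM in aged replicate 1 and 58.5 CPM in aged replicate 3, above aged (Tm) replicate 3. The log2 fold change was 5.37 ± 0.80 (SE, edgeR without a filter, adjusted p = 5.31e-08). PYCR1, the last step of proline synthesis in mitochondria, had 28.8, 34.5 and 41.1 CPM in aged (Tm) libraries, against 0, 7.53, 19.5 and 22.2 CPM in aged libraries, and a log2 fold change of 2.29 ± 0.72 (SE, edgeR without a filter, adjusted p = 0.0337). Without aged replicate 1 its adjusted p was 0.136, with total counts alone 0.323, after thinning 0.465 and without the shallow libraries 0.273.

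The other enzymes did not pass the threshold. ALDH18A1 (ENSNFUG00015014012), which starts proline synthesis, was well counted in all groups, with 245, 260 and 234 CPM in aged (Tm) libraries, against 106, 196, 292 and 250 CPM in aged libraries. The aged (Tm) values lay inside the aged range, and the log2 fold change of 0.59 ± 0.52 (SE, edgeR adjusted p = 0.375) turned to -0.06 when libraries were scaled by total counts alone. The gene aldh18a1 (ENSNFUG00015024294) had 10 counts in aged (Tm) and 7 in aged libraries. The mitochondrial enzymes of one-carbon metabolism, SHMT2 and mthfd2, averaged 22.1 ± 9.47 and 9.56 ± 10.1 CPM in aged (Tm) libraries (SD, n = 3), against 41.5 ± 27.7 and 38.6 ± 47.1 CPM in aged libraries (SD, n = 4). Their fitted log2 fold changes were 0.33 ± 0.65 and -0.53 ± 0.75 (SE, edgeR without a filter, adjusted p = 0.854 and 0.744).

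**Figure D2:**
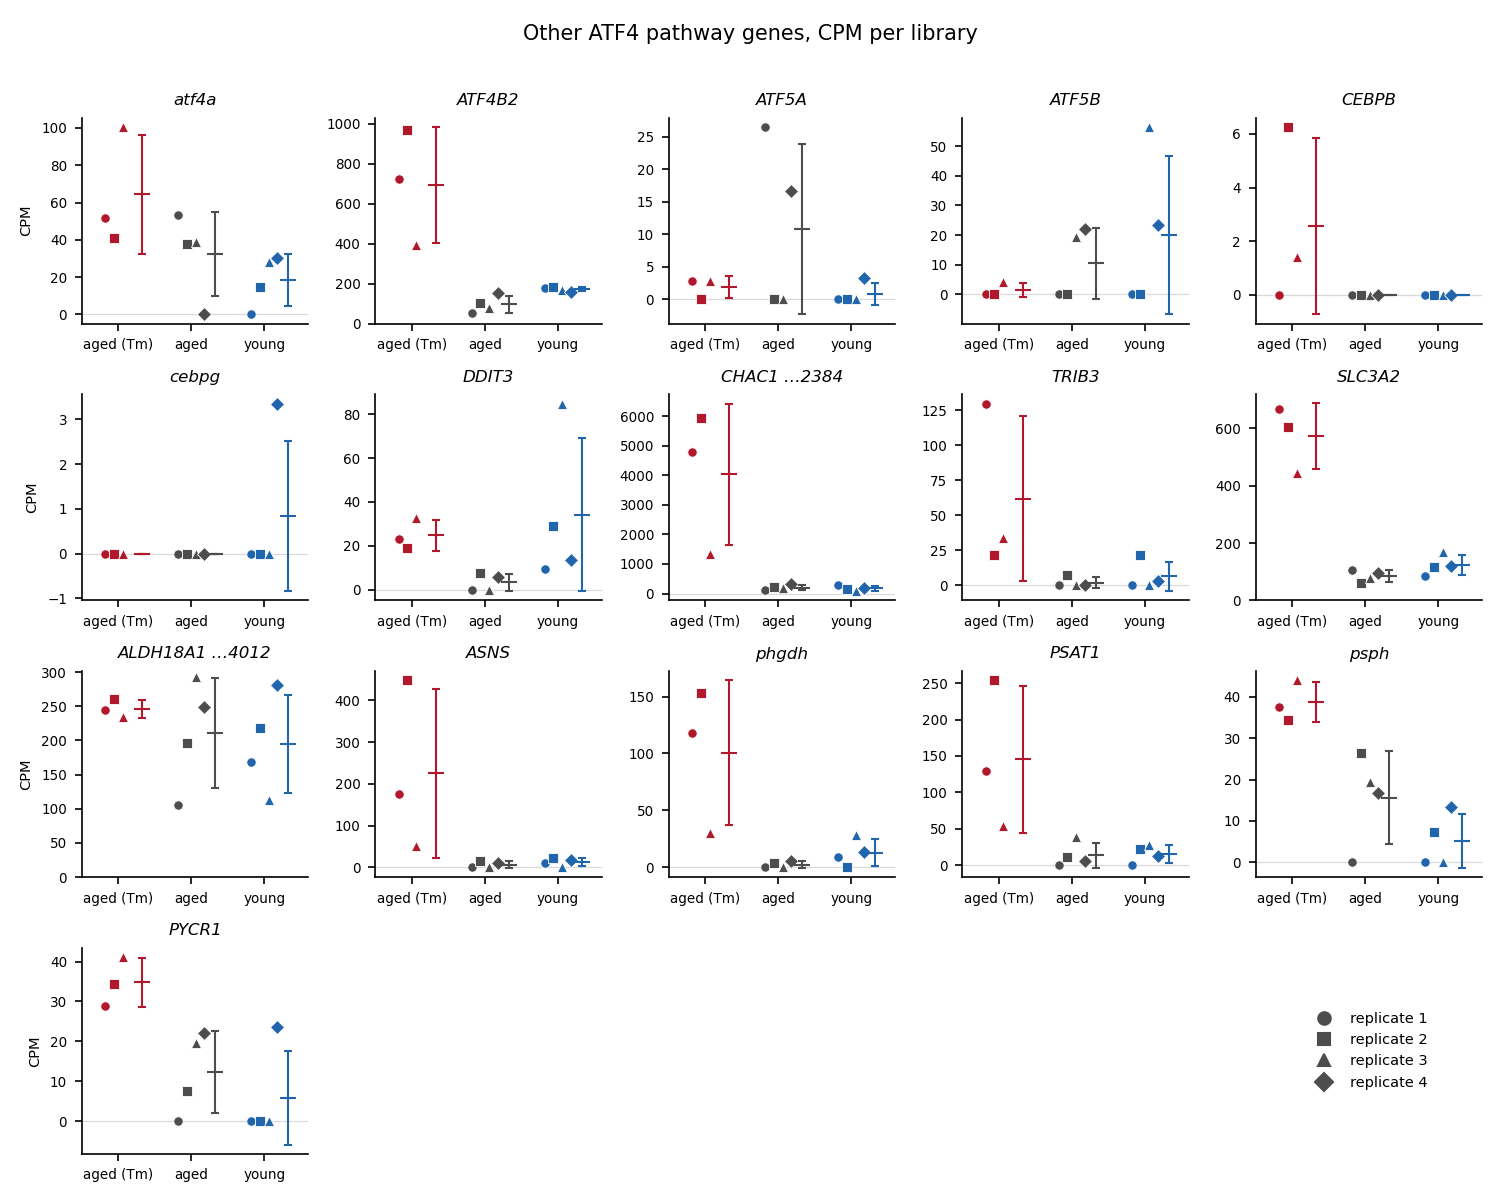
CPM per library of 16 ATF4 pathway genes other than synthetases, with aged (Tm) left, aged in the middle and young right. Symbols mark replicates, and bars give the mean ± SD. CHAC1 at 1341 to 5943 CPM and SLC3A2 at 445 to 669 CPM in aged (Tm) libraries lie above all control libraries, while ALDH18A1 overlaps between all groups.

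Of the synthetases, 13 of 16 were higher in aged (Tm) libraries than in aged libraries without a filter, beside 6.12% of all genes. NARS, which charges tRNA with asparagine, had the highest fold change of all members. It had 265, 197 and 117 counts in aged (Tm) libraries (764, 617 and 166 CPM), against 0, 6, 0 and 2 counts in aged libraries. All aged (Tm) libraries were far above the aged ones, and the log2 fold change was 5.62 ± 0.85 with the filter (SE, edgeR adjusted p = 0.000408). The serine enzyme SARS had 190, 216 and 159 CPM in aged (Tm) libraries, against 0, 11.3, 19.5 and 22.2 CPM in aged libraries (log2 fold change 3.94 ± 0.75, SE, edgeR adjusted p = 0.0018). The threonine enzyme tars1 had 1464, 1049 and 600 CPM in aged (Tm) libraries, against 0, 143, 136 and 66.5 CPM in aged libraries. Its log2 fold change was 3.89 ± 0.81 (SE, edgeR adjusted p = 0.00332).

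The valine enzyme VARS had 352, 251 and 129 CPM in aged (Tm) libraries, against 53.1, 15.1, 39.0 and 22.2 CPM in aged libraries (log2 fold change 3.70 ± 0.61, SE, edgeR adjusted p = 0.00078). The lysine enzyme KARS had 320, 348 and 234 CPM in aged (Tm) libraries, against 26.6, 71.6, 19.5 and 38.8 CPM in aged libraries (log2 fold change 3.04 ± 0.60, SE, edgeR adjusted p = 0.00259). The alanine enzyme AARS had 458, 614 and 228 CPM in aged (Tm) libraries, against 26.6, 143, 39.0 and 77.6 CPM in aged libraries (log2 fold change 2.76 ± 0.62, SE, edgeR adjusted p = 0.00556). In these genes too no aged library reached an aged (Tm) library, and aged (Tm) replicate 3 was the lowest of the treated libraries.

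Phenylalanyl-tRNA synthetase is built of an alpha and a beta subunit, encoded by farsa and farsb, and both were higher. The gene farsa had 291, 410 and 211 CPM in aged (Tm) libraries, against 79.7, 94.2, 0 and 83.2 CPM in aged libraries. The gene farsb had 121, 179 and 85.0 CPM in aged (Tm) libraries, against 26.6, 37.7, 19.5 and 49.9 CPM in aged libraries. The subunits had close fold changes, 2.47 ± 0.62 for farsa and 2.11 ± 0.55 for farsb on the log2 scale (SE, edgeR adjusted p = 0.0098 and 0.0115), and the order of the aged (Tm) libraries was the same in both. The methionine enzyme mars1 had 63.4, 125 and 59.5 CPM in aged (Tm) libraries, against 26.6, 22.6, 39.0 and 5.55 CPM in aged libraries (log2 fold change 2.39 ± 0.62, SE, edgeR adjusted p = 0.0122). With total counts alone its adjusted p was 0.106.

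The histidine enzyme HARS, the arginine enzyme RARS and the tryptophan enzyme WARS1 did not pass the filter and were called higher without it. HARS had 34, 25 and 36 counts in aged (Tm) libraries, against 0, 1, 0 and 2 counts in aged libraries (log2 fold change 4.59 ± 0.79, SE, edgeR without a filter, adjusted p = 3.09e-06). RARS had 60.5, 75.2 and 51.0 CPM in aged (Tm) libraries, against 0, 30.1, 19.5 and 16.6 CPM in aged libraries (log2 fold change 2.47 ± 0.65, SE, edgeR without a filter, adjusted p = 0.00603). The RARS call was lost with total counts alone (log2 fold change 1.57, adjusted p = 0.191), after thinning (adjusted p = 0.358) and without the shallow libraries (adjusted p = 0.15). WARS1 had 37.5, 43.9 and 24.1 CPM in aged (Tm) libraries, against 26.6, 11.3, 19.5 and 5.55 CPM in aged libraries. Its groups overlapped through aged replicate 1, where 1 count makes 26.6 CPM, and the log2 fold change of 2.50 ± 0.74 (SE, edgeR without a filter, adjusted p = 0.0219) had an adjusted p of 0.13 without aged replicate 4, 0.321 with total counts alone, 0.718 after thinning and 0.116 without the shallow libraries.

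The eprs1 gene, whose protein charges both glutamate and proline, had the highest adjusted p of the genes called with the filter, with 49.0, 65.8 and 125 CPM in aged (Tm) libraries, against 53.1, 45.2, 19.5 and 55.5 CPM in aged libraries. The groups overlapped. Its log2 fold change of 1.05 ± 0.47 (SE, edgeR adjusted p = 0.0927) lost the threshold without aged (Tm) replicate 2, without aged replicate 1, 2 or 3 and without young replicate 2, 3 or 4, with adjusted p from 0.101 to 0.196. It was also lost with total counts alone (0.65, adjusted p = 0.412), limma voom, the compared groups alone and without the shallow libraries. IARS, DARS and QARS, for isoleucine, aspartate and glutamine, did not pass the threshold. IARS had 20.2, 25.1 and 46.8 CPM in aged (Tm) libraries, against 106, 37.7, 97.4 and 33.3 CPM in aged libraries. Its log2 fold change was -0.51 ± 0.60 with the filter (SE, edgeR adjusted p = 0.513) and 0.28 ± 0.62 without it (adjusted p = 0.883). DARS had 15 counts in aged (Tm) and 4 in aged libraries, and QARS had 31 and 12 counts, with adjusted p of 0.463 and 0.584 (edgeR without a filter).

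Of the scaffold genes, AIMP1, which helps hold the multisynthetase complex together, had 173, 204 and 172 CPM in aged (Tm) libraries, against 26.6, 75.3, 77.9 and 55.5 CPM in aged libraries. The treated libraries lay close together above all aged libraries, with a log2 fold change of 1.88 ± 0.57 (SE, edgeR adjusted p = 0.0228). Its paralog aimp1b had 5 counts in aged (Tm) and 2 in aged libraries. AIMP2 had 0, 2 and 3 counts in aged (Tm) libraries and none in the 8 control libraries. No fold is given for it here, and the figures of fold changes draw it at a fitted value.

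**Figure D3:**
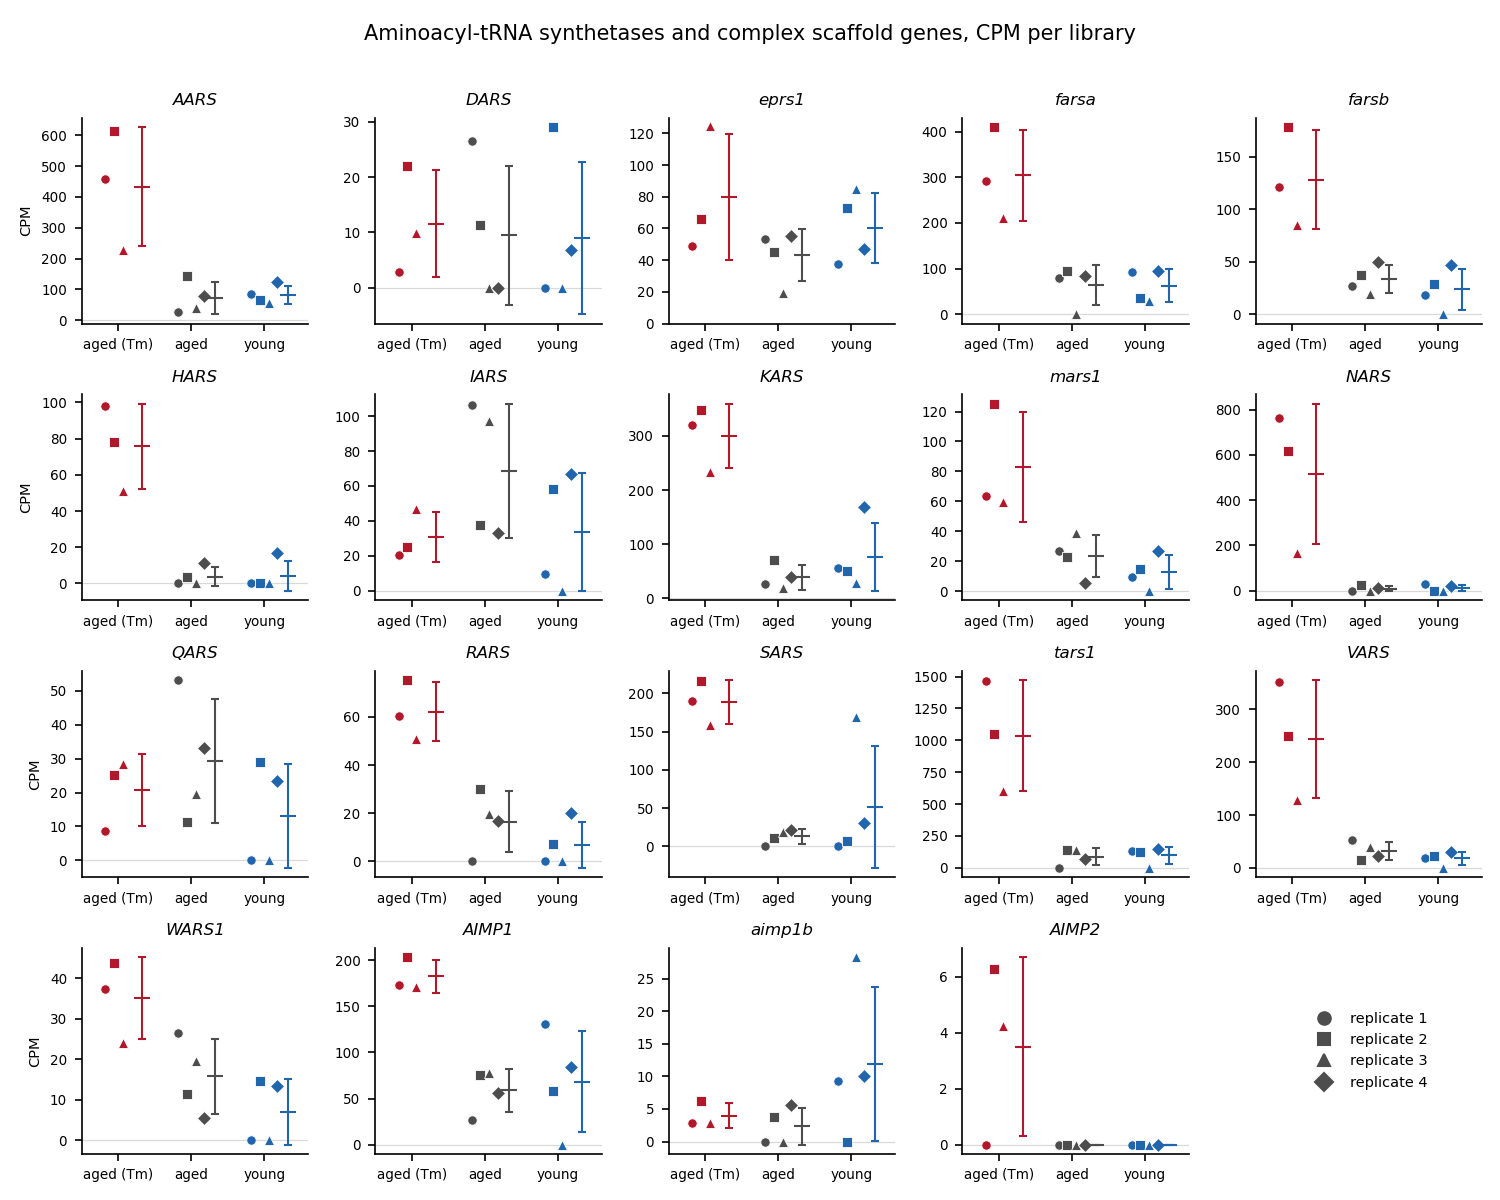
CPM per library of the 16 synthetases and 3 scaffold genes, with aged (Tm) left, aged in the middle and young right. Symbols mark replicates, and bars give the mean ± SD. NARS at 166 to 764 CPM and tars1 at 600 to 1464 CPM in aged (Tm) libraries are clear of the controls. IARS, DARS, QARS, eprs1, WARS1, aimp1b and AIMP2 overlap between aged (Tm) and aged libraries.

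Synthetases and the other ATF4 genes were then set side by side. Without a filter, 14 of the 19 synthetase and scaffold genes were higher in aged (Tm) libraries than in aged libraries, and 11 of the 23 other genes. Of all genes, 6.12% were. The median log2 fold changes were 3.07 and 1.87. With the gene at 0 in controls set to its lower bound and the genes with at most 3 counts in either group left out, they were 2.80 and 2.20. With the filter, the counts were 11 of 12 and 3 of 4, beside 18.5% of all genes. Some of the 12, such as NARS, SARS and VARS, passed the filter only through the aged (Tm) libraries. For these, being tested and being higher were linked, so the counts with the filter are no separate evidence. The summed level of the 19 genes was 4476, 4361 and 2385 CPM in aged (Tm) libraries, against 531, 791, 565 and 593 CPM in aged libraries. For the 23 other genes it was 7174, 8837 and 2872 CPM in aged (Tm) libraries, against 691, 731, 838 and 1048 CPM in aged libraries. CHAC1 (ENSNFUG00015002384) alone made 66.8%, 67.2% and 46.7% of the sum of these 23 genes in aged (Tm) libraries, and without it the other 22 genes summed to 2381, 2895 and 1531 CPM in aged (Tm) libraries, against 584, 524, 662 and 732 CPM in aged libraries. Each of these sums was higher in every aged (Tm) library than in any aged library.

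In mammals some synthetases sit in the multisynthetase complex and others are free. This division, made after the values were seen and so given without a test, is shown with its values only. Outside the complex, 9 of 9 synthetases (AARS, farsa, farsb, HARS, NARS, SARS, tars1, VARS and WARS1) were higher in aged (Tm) libraries than in aged libraries, with log2 fold changes of 2.50 to 6.25 and a median of 4.41 without a filter. Of the complex, 4 of 7 were higher (eprs1, KARS, mars1 and RARS but not DARS, IARS or QARS), with log2 fold changes of 0.28 to 3.70 and a median of 1.76. Both counts stand beside 6.12% of all genes higher. Scaled by total counts alone, the calls were 8 of 9 and 2 of 7, beside 1.90% of all genes higher, with medians of 3.23 and 0.83. The aged libraries together held 3 to 57 counts per gene outside the complex and 4 to 28 within it.

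Mitochondrial synthetases, most of them with nuclear genes of their own, were taken as a separate list. Of 16 genes of this list (14 synthetases and 2 subunits, gatc and qrsl1, of an enzyme that corrects mischarged tRNA), none was called without a filter, beside 6.12% of all genes higher and 0.754% lower, and 3 had an unadjusted p below 0.05, beside 16.1% of all genes. The aged libraries together held from 1 count (MARS2) to 28 counts (gatc) per gene. At this depth and share, 0 calls do not set the list apart from all genes. RLE size factors gave 1 of 16 lower, beside 2.6% of all genes, and total counts alone 2 of 16 lower, beside 6.99%. Their median log2 fold change was 0.79, and -0.11 with total counts alone. With the filter, 2 were tested, and gatc was lower in aged (Tm) libraries (log2 fold change -1.43, edgeR adjusted p = 0.087), a call absent with RLE size factors. The summed level was 136, 282 and 228 CPM in aged (Tm) libraries, against 345, 260, 409 and 355 CPM in aged libraries.

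Upstream of ATF4, 11 of 15 genes of the eIF2 kinases and eIF2 factors were higher in aged (Tm) libraries than in aged libraries without a filter, beside 6.12% of all genes, and none was lower, with a median log2 fold change of 2.30. With total counts alone 3 of 15 were higher, beside 1.90% of all genes. The eIF2 gamma subunit EIF2S3 averaged 127 ± 56.3 CPM in aged (Tm) libraries (SD, n = 3), against 29.4 ± 15.9 CPM in aged libraries (SD, n = 4), with a log2 fold change of 3.38 ± 0.68 (SE, edgeR without a filter, adjusted p = 0.00012). The beta subunit eif2s2 averaged 609 ± 189 CPM in aged (Tm) libraries, against 121 ± 33.5 CPM in aged libraries, with a log2 fold change of 3.36 ± 0.80 (SE, edgeR without a filter, adjusted p = 0.00186). EIF2B2 and EIF2B5, subunits of the exchange factor that reloads eIF2, had log2 fold changes of 3.42 ± 0.83 and 2.61 ± 0.65 (SE, edgeR without a filter, adjusted p = 0.00226 and 0.00332).

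Of 36 genes on a list of further ATF4 targets, 6 were higher without a filter, beside 6.12% of all genes, and none lower, with a median log2 fold change of 0.29. With total counts alone 2 were higher, beside 1.90%, and 1 lower, beside 6.99%, and the median was -0.44. The 4 with the lowest adjusted p were vegfab, a blood vessel growth factor (4.40 ± 0.73), the stress factor NUPR1 (2.73 ± 0.68), CBS of the transsulfuration pathway (3.44 ± 0.88) and the autophagy receptor sqstm1 (2.49 ± 0.72), all as log2 fold change ± SE (edgeR without a filter, adjusted p from 1.36e-06 for vegfab to 0.0181 for sqstm1). The remaining 30 genes, among them further amino acid carriers such as slc38a2 and SLC1A5, did not pass. Of 9 genes of an ER stress reference list, 5 were higher, beside 6.12% of all genes, and none lower, and 3 were higher with total counts alone, beside 1.90%.

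**Figure D4:**
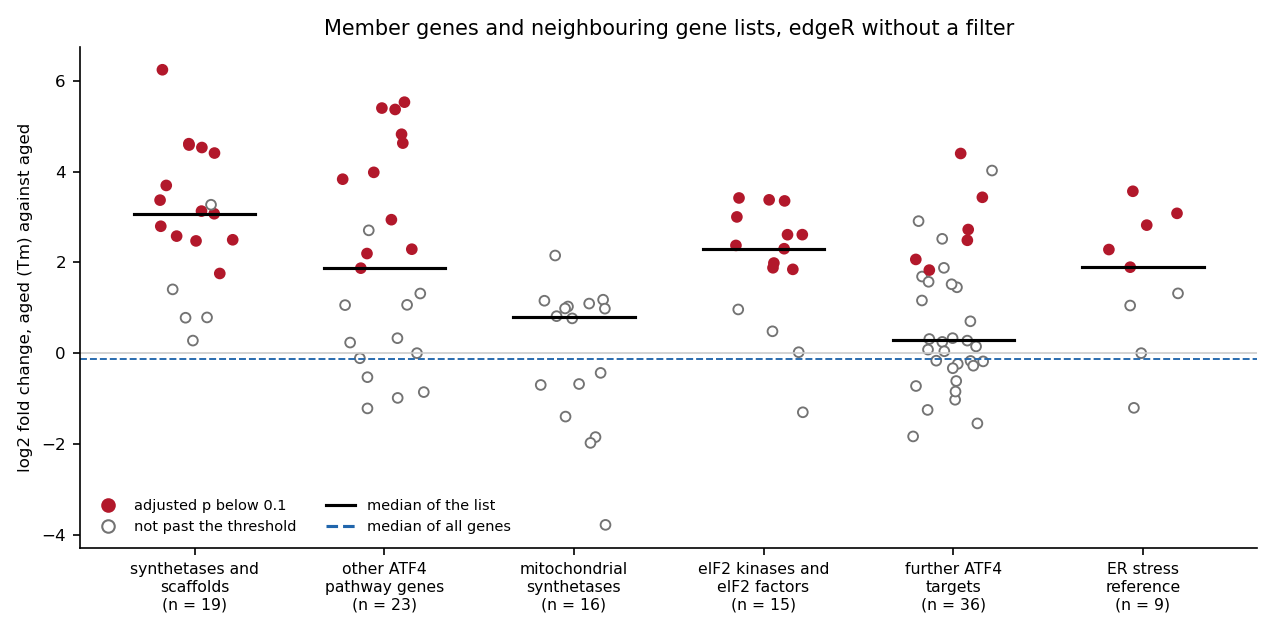
Log2 fold changes, aged (Tm) against aged, of the member genes and of 4 other gene lists, with edgeR without a filter. Each point is 1 gene, filled where the adjusted p was below 0.1, bars are list medians and the dashed line is the median of all genes. Medians are 3.07 for synthetases and scaffolds, 1.87 for the other ATF4 genes, 0.79 for mitochondrial synthetases, 2.30 for the eIF2 list, 0.29 for further ATF4 targets and 1.90 for the ER stress list, where values of genes with at most 3 counts in either group are fitted ones.

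**Figure D5:**
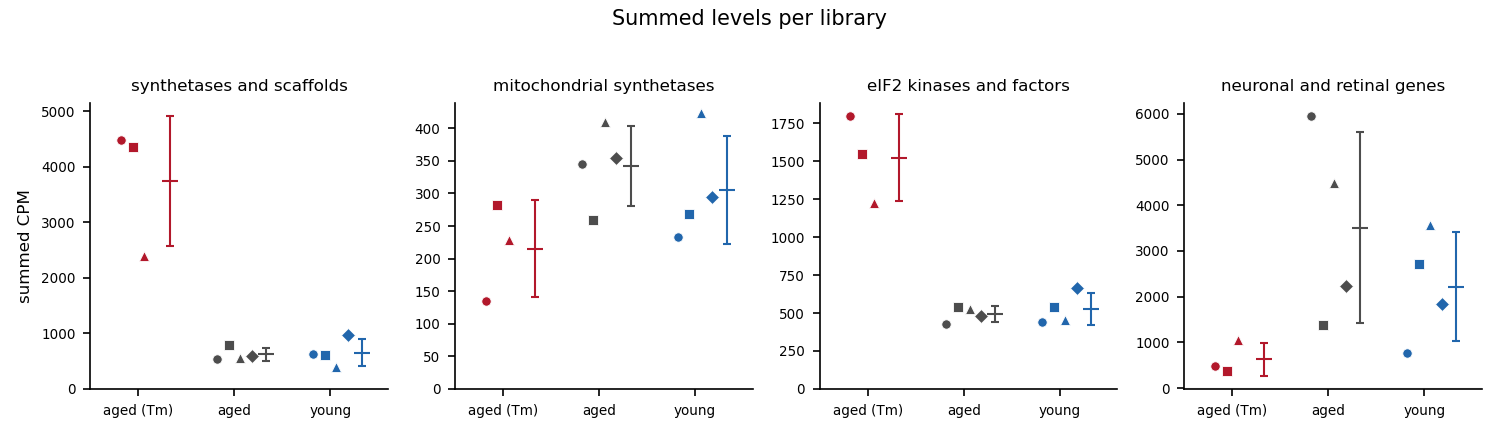
Summed CPM per library of 4 gene lists, with aged (Tm) left, aged in the middle and young right, symbols for replicates and bars for the mean ± SD. Synthetases and scaffolds reached 2385 to 4476 CPM in aged (Tm) libraries and at most 973 CPM in control libraries. Mitochondrial synthetases did not exceed 282 CPM in aged (Tm) libraries, and the neuronal and retinal genes scarce in epidermis were lower there than in all aged libraries but overlapped with young libraries.

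The aged (Tm) libraries differed among themselves. Of the 25 genes called without a filter, 19 (76.0%) had their lowest CPM in aged (Tm) replicate 3, and 4 in replicate 2 and 2 in replicate 1. Of all 1405 genes called higher, 45.3% had their lowest CPM in replicate 3. The median ratio of replicate 3 to the mean of replicates 1 and 2 was 0.593 for the 25 genes and 0.847 for the 1405. CPM was also scaled by the TMM factors of the fit with the filter, which are not those behind these calls. On that scale 22 of the 25 (88.0%) and 76.1% of the 1405 were lowest in replicate 3. The median ratios were 0.357 and 0.511, and the members and all called genes lay closer together in this share. Replicate 3 also had the highest level of the scarce neuronal and retinal genes among the treated libraries, 1042 CPM beside 476 and 367 CPM, and the part of this in its lower values was not tested. Without replicate 3, 24 of the 42 genes were called, and the share of all genes called in that fit was not summarized.

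The second comparison asked how the same genes differed with age in control fish. No member was called, with the filter (0 of 16) or without it (0 of 42), where 0.707% and 0.0915% of all genes were called in either direction with edgeR. At shares this low, 0 calls do not set the members apart from other genes. DESeq2 and limma voom also called none, where DESeq2 gave an adjusted p to 19 of the 42 and called 2.31% of all genes to which it gave one. With edgeR without a filter, 1 of the 42 had an unadjusted p below 0.05, beside 3.7% of all genes. The median log2 fold change of the 42 genes was -0.12. The summed level of the members was 1222 to 1642 CPM in aged libraries, against 1272 to 1933 CPM in young libraries. For synthetases and scaffolds it was 531 to 791 CPM in aged libraries, against 396 to 973 CPM in young libraries.

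The aged and young libraries did not overlap for 2 of the 42 genes, both lower in aged, beside 0.653% of all genes, and none was wholly higher, beside 1.39%. ATF4B2 had 53.1, 102, 77.9 and 155 CPM in aged libraries, against 178, 182, 170 and 158 CPM in young libraries. The young libraries lay within a narrow band just above the highest aged library, and the log2 fold change was -0.75 ± 0.59 (SE, edgeR adjusted p = 0.981). DDIT3 had 0, 2, 0 and 1 counts in aged libraries, against 1, 4, 3 and 4 counts in young libraries (log2 fold change -1.99 ± 0.96, SE, edgeR without a filter, adjusted p = 0.885). At these counts a difference of this size was not detectable, and neither gene is called lower. Among synthetases, KARS had a log2 fold change of -0.85 ± 0.60 and AARS of -0.03 ± 0.63, aged against young (SE, edgeR adjusted p = 0.974 and 0.999).

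The third comparison set aged (Tm) fish against young fish, and shares the aged (Tm) libraries with the first. Without a filter, 23 of the 42 genes were higher and none lower, beside 4.6% and 0.789% of all genes, and with the filter 13 of 16 were higher, beside 15.9%. Here too some of the 16, such as NARS, SARS and VARS, passed the filter only through the aged (Tm) libraries. For these, being tested and being higher were linked, so the count with the filter is no separate evidence. DESeq2 gave an adjusted p to 30 of the 42 and called 24 of them higher, beside 19.0% of all genes to which it gave one. The median log2 fold change of the 42 was 2.68. NARS had 764, 617 and 166 CPM in aged (Tm) libraries, against 28.1, 0, 0 and 20.1 CPM in young libraries (log2 fold change 5.54 ± 0.84, SE, edgeR adjusted p = 0.000235). CHAC1 (ENSNFUG00015002384) had a log2 fold change of 4.85 ± 0.86 and VARS of 3.84 ± 0.60, aged (Tm) against young (SE, edgeR adjusted p = 0.000725 and 0.000277). No young library reached an aged (Tm) library in any of these genes.

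ATF4B2, at 724, 968 and 391 CPM in aged (Tm) libraries, was also above the 158 to 182 CPM of young libraries, with a log2 fold change of 2.42 ± 0.60 (SE, edgeR adjusted p = 0.00828). DDIT3 was not, with 18.8 to 32.6 CPM in aged (Tm) libraries and 9.36 to 84.8 CPM in young libraries (log2 fold change 0.95 ± 0.69, SE, edgeR without a filter, adjusted p = 0.572). SARS was called against young fish as well (log2 fold change 2.98 ± 0.69, SE, edgeR adjusted p = 0.00542), although young replicate 3 had 6 counts, or 170 CPM, and overlapped with the treated libraries. AIMP1 passed narrowly (log2 fold change 1.54 ± 0.56, SE, edgeR adjusted p = 0.0535), and its adjusted p was 0.101 to 0.165 without aged (Tm) replicate 1 or 2 or young replicate 2 or 3, and 0.139 with total counts alone. With total counts alone atf4a, psph, PYCR1 and WARS1 were not called against young either (edgeR without a filter, adjusted p from 0.194 to 0.3001). TRIB3 had an adjusted p of 0.101 without aged (Tm) replicate 1, and PYCR1 one of 0.214 without young replicate 2 (edgeR without a filter). Eprs1, IARS and ALDH18A1 did not pass (edgeR adjusted p = 0.219, 0.817 and 0.365).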

How the data were processed

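The authors deposited UMI counts per gene, whole numbers without normalization, for 22954 genes in 11 libraries. The submitters' processing notes name UMI-tools 1.0.0, HISAT2 2.1.0, featureCounts 1.6.4 and DESeq2 1.20.0. The genome build, annotation and strand setting are not given in the sources used here, so genes that overlap or share near-identical copies are uncertain. Total counts per library were 35366 to 705538, and intervals cover counting error only.

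Differential expression was tested by the quasi-likelihood test of edgeR 4.0.16 under R 4.3.3 (two-sided, TMM, filterByExpr by group, 3963 genes) in 1 fit of all 11 libraries. P-values were adjusted by Benjamini-Hochberg over all genes tested, with the threshold of 0.1 that the study uses for its expression plot. The SE is the log2 fold change divided by the root of F. The filter left out 26 of the 42 genes, so the fit was repeated without a filter, and the alternatives to that fit were added after the data were seen. Fold changes use TMM-scaled counts, whereas CPM uses total counts, so ratios of CPM differ from them. Fold changes with and without the filter come from separate fits and are not directly comparable. SARS, for example, had a log2 fold change of 3.94 with the filter and 4.62 without it, aged (Tm) against aged.

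Per-library values are given for members past the threshold and for transcription factors, and from other lists the up to 4 called genes with the lowest adjusted p. IARS, ALDH18A1 and some low genes were added after their values were seen. Members and lists were chosen with earlier results of these data known. Alternatives were RLE and total count scaling, DESeq2 1.42.0, limma voom 3.58.1, only the groups compared, thinning, a replicate block, a covariate for scarce genes, leaving out each library, and, added later, leaving out the 3 libraries under 60000 counts. The procedure was tested on simulated data. Figures were drawn with matplotlib 3.10.9.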

Additional observations from a re-analysis of the deposited data

Results flagged for a closer look

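In the groups of 4 libraries, 54 sets of CPM values from 27 member genes (those tested with the filter or called without it) were checked for 1 library far from the other 3, by the gap to its nearest neighbour over the whole range. For normally distributed values chance gives about 1 in 20 such results. This rate does not hold for low counts, where 3 libraries at 0 and 1 above it give a ratio of 1.0 at any level. The 6 of the 54 that stood apart are therefore listed without being set against chance.

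For 4 of these a single control library held nearly all counts of a low gene. TRIB3 had 2 counts (7.53 CPM) in aged replicate 2 and none in the other aged libraries (ratio 1.0). In young fish TRIB3 had 3 counts (21.8 CPM) in replicate 2 and at most 3.35 CPM elsewhere (ratio 0.846). PYCR1 had 7 counts (23.5 CPM) in young replicate 4 and HARS 5 counts (16.8 CPM) in the same library, with none in the other young libraries (ratio 1.0 for each).

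For the other 2, a shallow library held none of a synthetase that the others had. The gene farsa had 0 counts in aged replicate 3 and 79.7 to 94.2 CPM in the other aged libraries (ratio 0.846). The gene tars1 had 0 counts in young replicate 3 and 124 to 144 CPM in the other young libraries (ratio 0.856). A count of 0 allows up to 58.5 CPM in aged replicate 3 and up to 84.8 CPM in young replicate 3.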

How the results depend on the processing

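For aged (Tm) against aged, 14 of 16 members were called with the filter. The count was 25 of 42 with no filter, 25 with DESeq2, 3 of 4 after thinning and 1 of 16 with the covariate of scarce genes. Of all genes, 18.5% were higher with the filter, and 6.12%, 16.5%, 9.38% and 0.530% under these settings in turn. For synthetases and scaffolds (11), thinning left 1 of 1 and the covariate 0 of 12. For the other ATF4 genes (3), no filter and DESeq2 gave 11, the 2 groups alone 6, the shallow libraries left out 6 and the covariate 1. With the 2 groups alone 17.6% of all genes were higher, and with the shallow libraries left out 10.05%. Without a filter (25), thinning gave 9 of 39, total counts alone 18 and the covariate 1, beside 0.420%, 1.90% and 0.135% of all genes higher. For aged (Tm) against young (13), no filter gave 23, DESeq2 24, the shallow libraries left out 21 of 24, thinning 3 and the covariate 4. Of all genes, 15.9% were higher there with the filter, and 4.6%, 19.0%, 16.5%, 10.5% and 2.09% under these settings in turn. Without a filter (23), thinning gave 7 and the covariate 2, beside 0.41% and 0.257% of all genes higher. Aged against young gave 0 under every alternative run. Few genes of any kind were called there, 0.707% of all genes with the filter and 0.0915% without it in the main fits. The 0 calls therefore do not set the members apart from other genes.

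With each library left out in turn, the calls ranged from 12 to 19 (aged (Tm) against aged), 9 to 13 (synthetases), 3 to 6 (other ATF4 genes) and 11 to 18 (against young). Without a filter they ranged from 21 to 25 and from 21 to 23. The numbers of members tested with the filter ranged from 14 to 21. The shares of all genes called in these fits were not summarized, so these counts have no background beside them.

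ALDH18A1 had a log2 fold change of -0.0568 with total counts alone, -0.50 after thinning and -0.21 with the covariate, aged (Tm) against aged, and -0.0089 with the covariate against young. IARS, aged (Tm) against aged, had 0.28 with no filter and 0.38 with the covariate. Against young it had 0.0478 with RLE, 0.32 with no filter, 0.21 with DESeq2, 0.42 with the covariate and -0.407 to 0.0514 with 1 library left out (highest without aged replicate 4). DDIT3 against young had -0.33 after thinning. None of these passed the threshold. The cause was not tested.

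Scaling moved the median of all genes, aged (Tm) against aged, from -0.03 (TMM) to 0.18 (RLE) and -0.58 (total counts), and without a filter from -0.14 to -0.48 and -1.02. Of all genes called, 47.8%, 59.3% and 26.5% were higher, and without a filter 89.0%, 67.9% and 21.4%. No member was called lower under these scalings. Replicate numbers did not pair the libraries (same-number correlations of deviations from -0.495 to 0.352). With the replicate block 13 of 16 members were called, eprs1 being lost, beside 20.1% of all genes higher. Without a filter the block gave 24 of 42, beside 6.57%. Depth limits what can be said of members with few counts.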

Other observations

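Enzymes that make an amino acid and the synthetase that charges it could be read side by side for asparagine, serine and proline, a grouping made after the values were seen and so without a test. For asparagine, ASNS and NARS had log2 fold changes of 5.37 ± 0.80 and 6.25 ± 0.91, aged (Tm) against aged (SE, edgeR without a filter). For serine, phgdh had 5.53 ± 0.84, PSAT1 4.63 ± 0.76 and psph 1.87 ± 0.66, and SARS 4.62 ± 0.76. For proline, ALDH18A1 had 1.31 ± 0.71 and PYCR1 2.29 ± 0.72, and eprs1, which charges proline as well as glutamate, 1.76 ± 0.62. ALDH18A1 did not pass the threshold (edgeR without a filter, adjusted p = 0.352).

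Several carriers and enzymes of amino acid metabolism on the list of further ATF4 targets had few counts. SLC7A3A had 15 counts in aged (Tm) and 1 in aged libraries, the gene with the symbol GOT1 in capitals had 8 and 0, and slc38a2 had 7 and 17. None of them passed the threshold (edgeR without a filter).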
